A study of Rattus norvegicus with 9 samples.

Results

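Endothelial and angiogenic genes were examined in the dorsal root ganglia (DRG) of rats after nerve injury and after blockade of GPER, the G protein-coupled oestrogen receptor. Their 10 members were chosen by gene symbol from the 20194 genes of the deposited table to follow the vessels of the ganglia apart from their blood. They are Pecam1, Cdh5, Kdr, Flt1, Tek, Tie1, Vwf, Eng, Vegfa and Angpt2. These members and the marker lists below were chosen with earlier results of these data known, so their counts beside all genes are descriptive. RNA-Seq was available for 3 groups of 3 libraries from adult male Sprague-Dawley rats, namely sham-operated rats (sham), rats with spared nerve injury of the sciatic nerve (SNI), and rats with SNI that received G15, a GPER antagonist, through an intrathecal catheter (SNI + G15). Per the labels, catheters were placed on day 5 of SNI and drugs were given in 2% DMSO for 24 h. The methods and figure legends of the study give other DMSO percentages. Sham and SNI samples are marked as controls for G15, but the labels do not say what either group received, so G15 and its vehicle cannot be told apart here. The main methods and a supplementary list of the study give different numbers of rats for RNA-Seq, so what 1 library stands for is not settled, and p-values measure the spread between libraries. The tissue is whole DRG, in which endothelial cells are a minority.

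Blood vessels of the ganglion lack part of the barrier that vessels of the brain have, and they lie among neurons, satellite glia, Schwann cells and macrophages. Vegfa is a secreted growth factor that acts on the receptors Kdr (VEGFR2, the main signalling receptor) and Flt1 (VEGFR1, which also traps the ligand). In a second system the ligand Angpt2 acts on the receptor Tek (Tie2), and Tie1 is a partner of Tek. Pecam1 and Cdh5 hold endothelial cells together at their junctions, Eng is a co-receptor for BMP and TGF-beta ligands, and Vwf is a clotting protein stored in endothelial cells and platelets.

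The start regions of 4 members whose levels changed are shown first, because later results set these genes against each other. Each is the 250 bases before the annotated start, 5′ to 3′ on the gene's own strand, from RefSeq on GRCr8. Capitals mark, on either strand, GCGTG or ACGTG (cores bound by hypoxia-inducible factors), AGGAAG (a core of ETS factors, which holds the shorter GGAA) and GGGCGG (an Sp1 box).
Eng (chr3:36332029-36332278, plus strand): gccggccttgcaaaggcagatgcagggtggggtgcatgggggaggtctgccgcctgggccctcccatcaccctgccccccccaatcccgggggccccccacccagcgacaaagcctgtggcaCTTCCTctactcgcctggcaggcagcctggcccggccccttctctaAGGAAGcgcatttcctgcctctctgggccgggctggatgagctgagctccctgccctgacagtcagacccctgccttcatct
Tie1 (chr5:137304982-137305231, minus strand): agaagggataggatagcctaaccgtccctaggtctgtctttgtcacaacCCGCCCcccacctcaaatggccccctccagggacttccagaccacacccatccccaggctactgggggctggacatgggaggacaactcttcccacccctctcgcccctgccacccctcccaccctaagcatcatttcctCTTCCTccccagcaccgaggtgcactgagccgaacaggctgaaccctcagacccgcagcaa
Vegfa (chr9:22452604-22452853, plus strand): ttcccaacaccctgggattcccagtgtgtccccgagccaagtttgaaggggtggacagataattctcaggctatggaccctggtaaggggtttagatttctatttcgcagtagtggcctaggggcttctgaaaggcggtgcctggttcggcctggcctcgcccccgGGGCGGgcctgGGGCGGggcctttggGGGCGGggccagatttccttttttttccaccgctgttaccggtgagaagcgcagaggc
Kdr (chr14:32571813-32572062, plus strand): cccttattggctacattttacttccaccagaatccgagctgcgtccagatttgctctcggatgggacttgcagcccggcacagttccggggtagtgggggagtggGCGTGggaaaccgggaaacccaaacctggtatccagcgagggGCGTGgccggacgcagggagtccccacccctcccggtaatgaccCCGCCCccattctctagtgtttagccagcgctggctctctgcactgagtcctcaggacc
AGGAAG occurred 2 times before Eng and 1 time before Tie1, and in 29.5% of all 33469 promoters of the same length. GGGCGG occurred 3 times before Vegfa and 1 time each before Tie1 and Kdr, and in 30.5% of all promoters. GCGTG occurred 2 times before Kdr (25.9% of all promoters), and ACGTG in none of the 4 (16.6%). A further annotated start of Vegfa (chr9:22460028-22460277, plus strand, 56.0% GC) is not shown, and its 250 bases hold none of these letters on either strand. GC content was 68.0% for Eng, 61.6% for Tie1, 60.4% for the Vegfa region shown and 61.6% for Kdr, against a median of 51.2% over all promoters. These matches describe the letters only.

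Levels between genes are given in FPKM, which is scaled to transcript length and library size. In sham ganglia Vegfa was the most abundant member, at 28.5 ± 1.09 FPKM (SD, n = 3), and Eng followed at 15.4 ± 0.68. Cdh5 (7.71 ± 0.45) and Pecam1 (7.52 ± 0.27) came next, and their ranges overlapped. Angpt2 (4.78 ± 0.23), Tie1 (4.72 ± 0.18) and Flt1 (4.55 ± 0.10) formed a second cluster with overlapping neighbours. Vwf (3.17 ± 0.19), Tek (2.98 ± 0.26) and Kdr (2.93 ± 0.26) were lowest, and again each overlapped its neighbour. The order changed in the other groups. In SNI the ranges of Vegfa (22.5 ± 1.02 FPKM) and Eng (22.5 ± 0.69) overlapped, and in SNI + G15 Eng (22.6 ± 2.41) lay above Vegfa (19.7 ± 0.54) with no overlap.

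**Figure D1:**
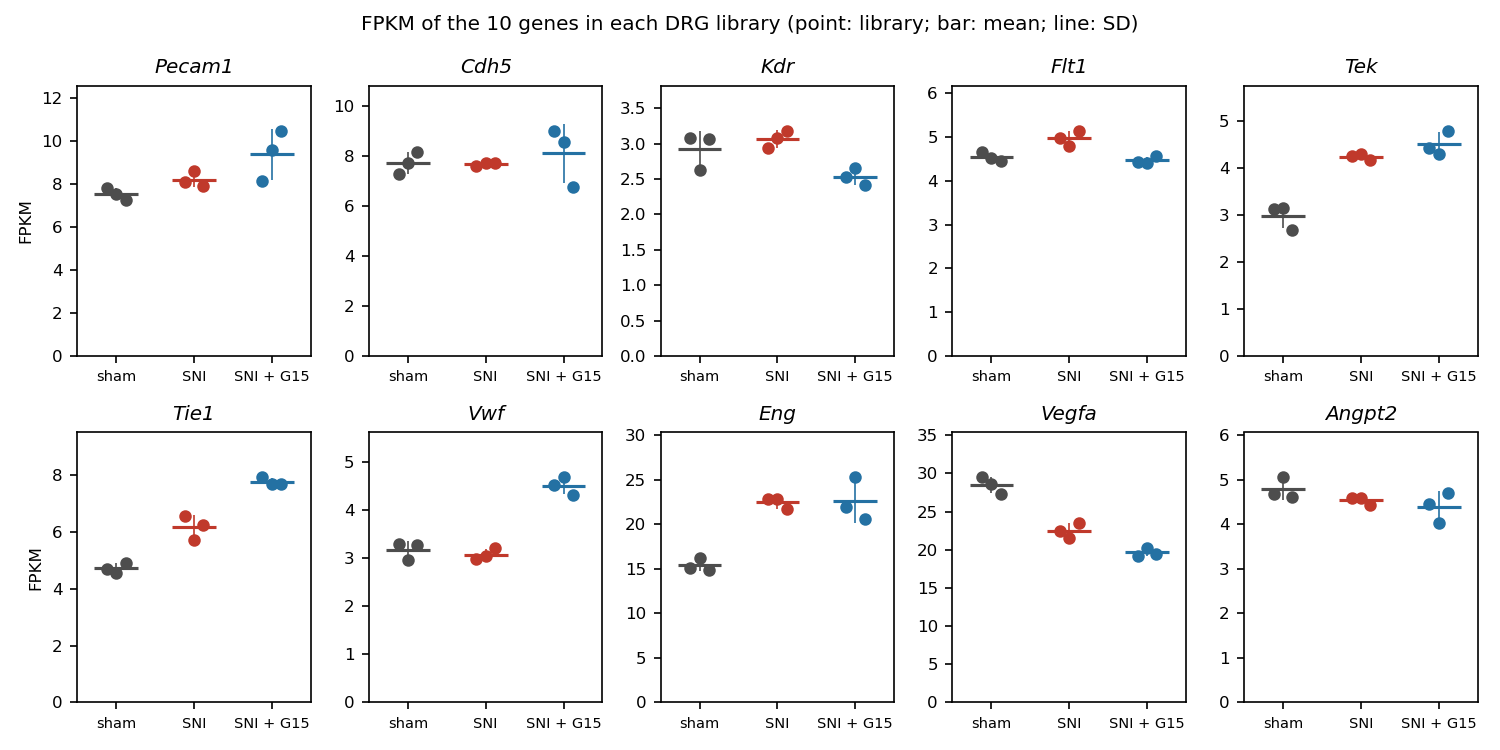
FPKM of each gene (vertical axes, from 0) in the 3 libraries of each group, with 1 panel a gene; points are libraries, thick bars group means and thin lines the SD. Eng, Tek and Tie1 lie higher in both injured groups than in sham, Vegfa lies lower, and Vwf is high in SNI + G15 alone, at 4.31 to 4.67 FPKM.

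Library totals were alike, from 18484557 to 18756736 estimated reads. Each member rested on 169 (Angpt2) to 1660 (Vegfa) estimated reads in a library, which sets a counting error of 2.73% (Vegfa) to 7.19% (Angpt2) at the mean count. The estimated counts of Tek were not whole in 9 of 9 libraries and those of Flt1 in 6 of 9, which arises where reads are shared between similar sequences. Among 20 other endothelial markers, 18 passed the filter of 1 FPKM in at least 1 library. Robo4, one of the defining markers, was near 0 in every group (0.043 to 0.15 FPKM as group means), and Tal1 was also below the filter.

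Differences between groups are given as log2 fold changes of normalised read counts (CPM, scaled to library size) from edgeR's quasi-likelihood test, with adjustment over 14305 genes. After SNI, Eng, Tek and Tie1 rose, Vegfa fell, and 6 of the 10 members were not called. The 4 called members compare with 45.7% of all genes tested (23.3% higher and 22.4% lower), so the share called was near the background. In 6 members the SNI and sham libraries did not overlap, against 55.1% of all genes. Past a log2 change of 0.5 in size, 1 member was called (Eng), against 14.1% of all genes. The median log2 change of the members was 0.065, against 0.0010 over all genes. In bulk RNA, more cells of a type and more RNA per cell cannot be told apart.

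Eng stood at 15.1, 16.2 and 14.9 FPKM in the sham libraries and at 22.9, 22.8 and 21.7 in SNI. Every SNI library lay above every sham library. The log2 fold change was 0.52 (SE 0.048, adjusted p = 9.2e-06, edgeR), from 41.8 ± 1.42 to 59.6 ± 1.55 CPM. Tek was at 3.13, 3.14 and 2.68 FPKM in sham and 4.25, 4.29 and 4.16 in SNI, again with no overlap (log2 fold change 0.47, SE 0.072, adjusted p = 0.000377, edgeR). Tie1, the partner receptor of Tek, was at 4.71, 4.55 and 4.91 FPKM in sham and 6.55, 5.72 and 6.26 in SNI. Its log2 fold change was 0.36 (SE 0.068, adjusted p = 0.00153, edgeR).

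Vegfa moved the other way. It was at 29.5, 28.7 and 27.3 FPKM in sham and 22.5, 21.5 and 23.5 in SNI, with every SNI library below every sham library. The log2 fold change was -0.36 (SE 0.048, adjusted p = 0.000143, edgeR), a fall of 21.9% in CPM. Its receptors were not called after SNI. Kdr had a log2 fold change of 0.04 (SE 0.074, adjusted p = 0.729, edgeR), with 2.63 to 3.08 FPKM in sham and 2.94 to 3.18 in SNI. Flt1 was at 4.46 to 4.65 FPKM in sham and 4.79 to 5.14 in SNI, which do not overlap, but its log2 fold change of 0.10 (SE 0.051, adjusted p = 0.140, edgeR) was not called. Angpt2 likewise did not overlap between the groups (4.61 to 5.05 FPKM in sham, 4.44 to 4.59 in SNI) and was not called, at -0.11 (SE 0.075, adjusted p = 0.300, edgeR). The junction genes gave 0.09 for Pecam1 (SE 0.064, adjusted p = 0.254) and -0.03 for Cdh5 (SE 0.062, adjusted p = 0.686), and Vwf gave -0.08 (SE 0.060, adjusted p = 0.315), all from edgeR. The 4 calls held in all 13 alternative analyses.

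With G15 after injury, Vwf and Tie1 rose against SNI and Vegfa and Kdr fell. Of all genes tested, 15.2% were called (7.98% higher and 7.25% lower), against 4 of the 10 members. The libraries did not overlap in 6 members, against 38.8% of all genes. Past a log2 change of 0.5 in size, 1 member was called (Vwf), against 3.67% of all genes. The median log2 change was 0.04 over the members and 0.0063 over all genes, so the members had no common direction.

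Vwf stood at 2.97, 3.04 and 3.20 FPKM in SNI and at 4.52, 4.67 and 4.31 in SNI + G15. The groups were far apart, with a log2 fold change of 0.57 (SE 0.056, adjusted p = 0.000421, edgeR), and 4.95% of tested genes changed by as much. Platelets also carry Vwf. Of 7 platelet markers, 1 passed the filter, and the summed level of the 7 was 8.01 to 8.49 CPM in SNI and 8.59 to 9.74 CPM in SNI + G15, against 27.1 and 40.2 CPM of Vwf itself. The part of platelets in the rise was not tested. Tie1 was at 6.55, 5.72 and 6.26 FPKM in SNI and at 7.92, 7.70 and 7.70 in SNI + G15, with a log2 fold change of 0.35 (SE 0.063, adjusted p = 0.00801, edgeR). It was thus higher again than after SNI alone, while Tek, at 4.30 to 4.78 FPKM against 4.16 to 4.29, was not called (0.10, SE 0.062, adjusted p = 0.308, edgeR).

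Vegfa was at 22.5, 21.5 and 23.5 FPKM in SNI and at 19.2, 20.3 and 19.5 in SNI + G15 (log2 fold change -0.21, SE 0.051, adjusted p = 0.0263, edgeR). Its direction was therefore the same as that of SNI against sham, and it was not moved back towards sham. Kdr, its main signalling receptor, was at 2.94, 3.08 and 3.18 FPKM in SNI and 2.53, 2.65 and 2.42 in SNI + G15, with no overlap (log2 fold change -0.26, SE 0.064, adjusted p = 0.0279, edgeR). Both calls were close to the threshold. Leaving out 1 library at a time, the Vegfa call was lost without replicate 1 (adjusted p = 0.0844, edgeR) or 3 (0.114) of SNI and without replicate 1 of SNI + G15 (0.0585). The Kdr call was lost without any one SNI library (adjusted p = 0.0558, 0.0908 and 0.110 without replicates 1, 2 and 3), without replicate 1 of SNI + G15 (0.0561), with the DESeq2 Wald test (0.139) and with limma-trend (0.0732).

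The other members were not called between SNI + G15 and SNI. Flt1 was at 4.41 to 4.56 FPKM in SNI + G15 and 4.79 to 5.14 in SNI, with no overlap (log2 fold change -0.14, SE 0.054, adjusted p = 0.119, edgeR). Eng, at 20.6 to 25.3 FPKM, overlapped the 21.7 to 22.9 FPKM of SNI, with a log2 fold change of -0.0043 (SE 0.073, adjusted p = 0.974, edgeR). Pecam1 (0.21, SE 0.097, adjusted p = 0.173) and Cdh5 (0.09, SE 0.094, adjusted p = 0.553) varied more within SNI + G15 than elsewhere. Their CPM had a coefficient of variation of 13.6% in that group for each gene, against 4.42% and 0.639% in SNI. Without SNI + G15 replicate 1, Pecam1 was called (log2 fold change 0.31, adjusted p = 0.0329, edgeR), and without SNI + G15 replicate 3, Cdh5 was (0.20, adjusted p = 0.0492, edgeR). Angpt2 gave -0.03 (SE 0.083, adjusted p = 0.825, edgeR).

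SNI + G15 against sham shares its libraries with both comparisons above, so its values are set beside them and are no further evidence. Of all genes tested 43.2% were called (21.4% higher and 21.9% lower), against 7 of the 10 members, and groups did not overlap in 7 members against 54.0% of all genes. Past a log2 change of 0.5 in size, 3 members were called (Tie1, Vegfa and Tek), against 17.7% of all genes. Tie1 had the largest rise among the members, at 0.68 (SE 0.063, adjusted p = 1.97e-05), then Tek at 0.55 (SE 0.080, adjusted p = 0.0004), Eng at 0.49 (SE 0.079, adjusted p = 0.000676) and Vwf at 0.47 (SE 0.068, adjusted p = 0.000361). Vegfa changed by -0.59 (SE 0.054, adjusted p = 1.57e-05). All are edgeR log2 fold changes. Pecam1 (0.28, adjusted p = 0.0402) and Kdr (-0.25, adjusted p = 0.0331) were called with edgeR but not in the DESeq2 Wald test, where their adjusted p was 0.0579 and 0.113. The Pecam1 call was lost without any one sham library (adjusted p = 0.0719, 0.0866 and 0.120 without replicates 1, 2 and 3), without SNI + G15 replicate 2 (0.0844) and without SNI + G15 replicate 3 (0.0977). The Kdr call was lost without sham replicate 1 (0.109) or 3 (0.120) and without SNI + G15 replicate 1 (0.0874) or 3 (0.0857).

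**Figure D2:**
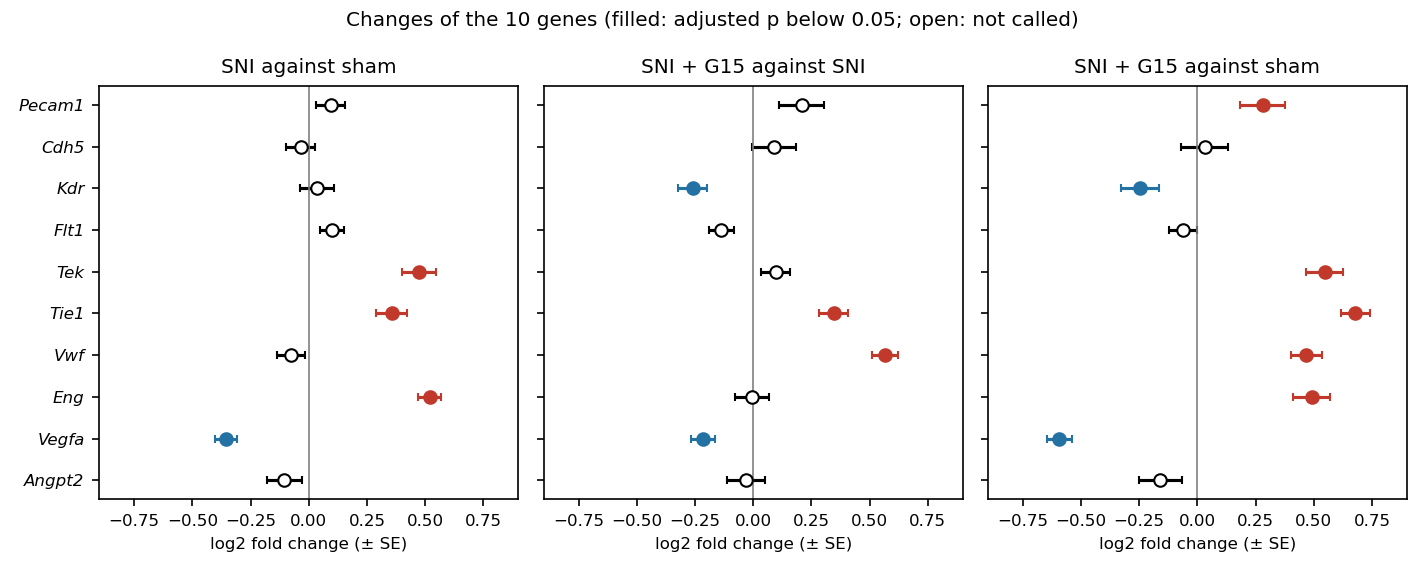
Log2 fold change (horizontal axes) of each gene in the 3 comparisons, from edgeR; points are estimates, bars the standard error, and filled points have an adjusted p below 0.05 (red higher, blue lower). Eng and Tek are called after SNI but not between SNI + G15 and SNI, Vwf the reverse, and Vegfa is called lower in all 3.

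The erythroid and endothelial marker sums moved differently between SNI and SNI + G15. The summed level of the 20 endothelial markers, with the members left out, was 279.8 to 293.2 CPM in sham, then 299.6 to 303.9 CPM in SNI, then 343.1 to 362.9 CPM in SNI + G15, so the group means rose 1.06-fold after SNI and 1.17-fold from SNI to SNI + G15. Most of the latter rise lay in Cldn5 (34.3 to 53.6 CPM) and Ramp2 (44.3 to 56.0 CPM). Of the 18 tested markers, 4 were called higher, against 7.98% of all genes, and 14 were not called. The estimate was higher in 15 of the 18, with a median log2 change of 0.17 against 0.0063 over all genes. Without Cldn5 and Ramp2, a choice made after seeing the data, the sum rose 1.14-fold after SNI. From SNI (222.6 to 224.2 CPM) to SNI + G15 (240.3 to 245.2 CPM) it rose 1.09-fold. Erythroid markers summed to 76.6 to 83.9 CPM in sham, 254.7 to 268.7 CPM in SNI and 148.9 to 169.4 CPM in SNI + G15. They were thus 3.26-fold higher after SNI and then fell to 0.602 of the SNI mean while the endothelial sum rose. Of 9 tested erythroid genes, 9 were called higher after SNI and 8 lower between SNI + G15 and SNI, against 23.3% and 7.25% of all genes. Neutrophil markers (79.1 to 90.0, 124.5 to 143.5 and 135.3 to 154.1 CPM) were raised in both injured groups, which overlapped each other. The sum of the 10 members stayed within a narrow range, at 285.7 to 291.2 CPM in sham, then 291.1 to 300.3 CPM in SNI, then 299.3 to 315.3 CPM in SNI + G15, with Vegfa alone going from 88.9 to 69.0 and 59.5 CPM as group means.

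**Figure D3:**
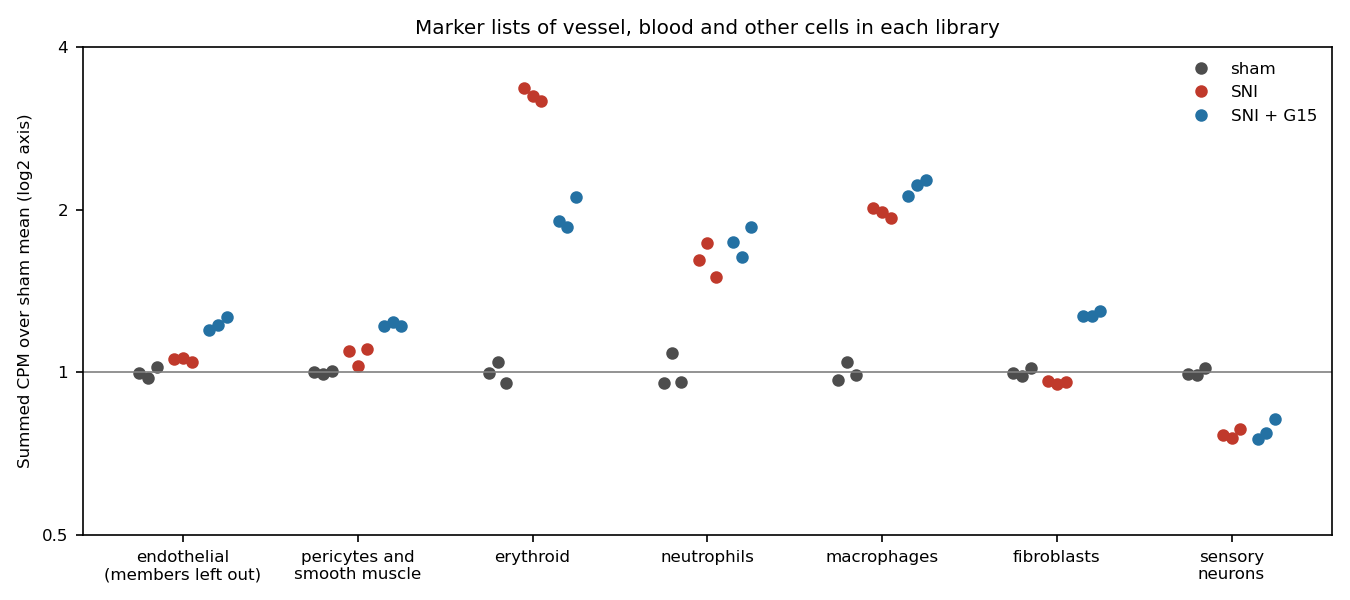
Summed CPM of each marker list divided by its sham mean (vertical log2 axis) in each of the 9 libraries; points are libraries, coloured by group. The erythroid list rises to over 3 times sham in SNI and falls back in SNI + G15, whereas the endothelial and mural lists are highest in SNI + G15.

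Markers of other cells that can express some members differed between groups too. Macrophages, which can carry Pecam1 and Eng, had a marker sum of 258.5 to 278.4 CPM in sham, then 513.9 to 536.4 CPM in SNI, then 565.7 to 606.0 CPM in SNI + G15. Of 10 macrophage markers, 9 were called higher after SNI, against 23.3% of all genes. Sensory neuron markers, from cells that can make Vegfa, summed to 35830 to 37020 CPM in sham, then 27420 to 28520 CPM in SNI, then 27340 to 29700 CPM in SNI + G15. Schwann cell markers fell from between 10990 and 11220 CPM to between 6121 and 6270 after SNI. Fibroblast markers summed to 1524 to 1575 CPM in sham and 1472 to 1488 CPM in SNI, below the 1964 to 2010 CPM of SNI + G15. Of 9 fibroblast markers, 8 were called higher in SNI + G15 than in SNI, against 7.98% of all genes. The part of these cells in the members' changes was not tested.

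The log2 CPM of each member was set against the mean log2 CPM of the 18 tested endothelial markers in the same library. For Vegfa, which sensory neurons can make, the result is not a level within endothelial cells. That marker mean was itself 0.15 higher in SNI than in sham, 0.17 higher in SNI + G15 than in SNI and 0.32 higher in SNI + G15 than in sham. Exact two-sided permutation tests over 3 against 3 libraries cannot go below p = 0.1, the value that any 2 groups without overlap give. After SNI 7 of the 10 members did not overlap relative to the markers, against 62.5% of all genes tested. Between SNI + G15 and SNI it was 7 members against 55.5% of all genes, and between SNI + G15 and sham 7 against 70.9%. The members' counts were thus near the background on this scale, on which the marker mean itself differed between groups. After SNI, Eng (0.36), Tek (0.31) and Tie1 (0.19) lay higher relative to the markers with no overlap of libraries. Vegfa (-0.52), Angpt2 (-0.27), Vwf (-0.24) and Cdh5 (-0.19) lay lower with no overlap (exact p = 0.1 for each of these 7). The own log2 fold changes of Angpt2 (-0.11), Vwf (-0.08) and Cdh5 (-0.03) were not called with edgeR. The 0.15 rise of the marker mean adds to their lower relative values.

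Between SNI + G15 and SNI, Vwf (0.40) and Tie1 (0.18) lay higher relative to the markers, and Kdr (-0.43), Vegfa (-0.38), Flt1 (-0.30), Angpt2 (-0.20) and Eng (-0.18) lay lower, each at the smallest p the exact test allows, 0.1. Both VEGF receptors thus lay lower against the endothelial mean in SNI + G15. Flt1 was not called on its own (log2 fold change -0.14, adjusted p = 0.119, edgeR), and the 0.17 rise of the marker mean adds to its lower relative value. Eng (-0.0043) and Angpt2 (-0.03) scarcely differed in their own log2 fold change, so their lower relative values came with the 0.17 rise of the marker mean. Pecam1 moved least, at 0.03 (exact p = 0.8). With the median of the markers in place of the mean, 7 of 30 differences moved by more than the SD within groups, and none of these 7 changed sign, as for Vegfa in SNI + G15 against sham (-0.82 in place of -0.90) and Tie1 (0.45 in place of 0.37). Pecam1 in SNI + G15 against sham changed sign, from -0.03 to 0.05.

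**Figure D4:**
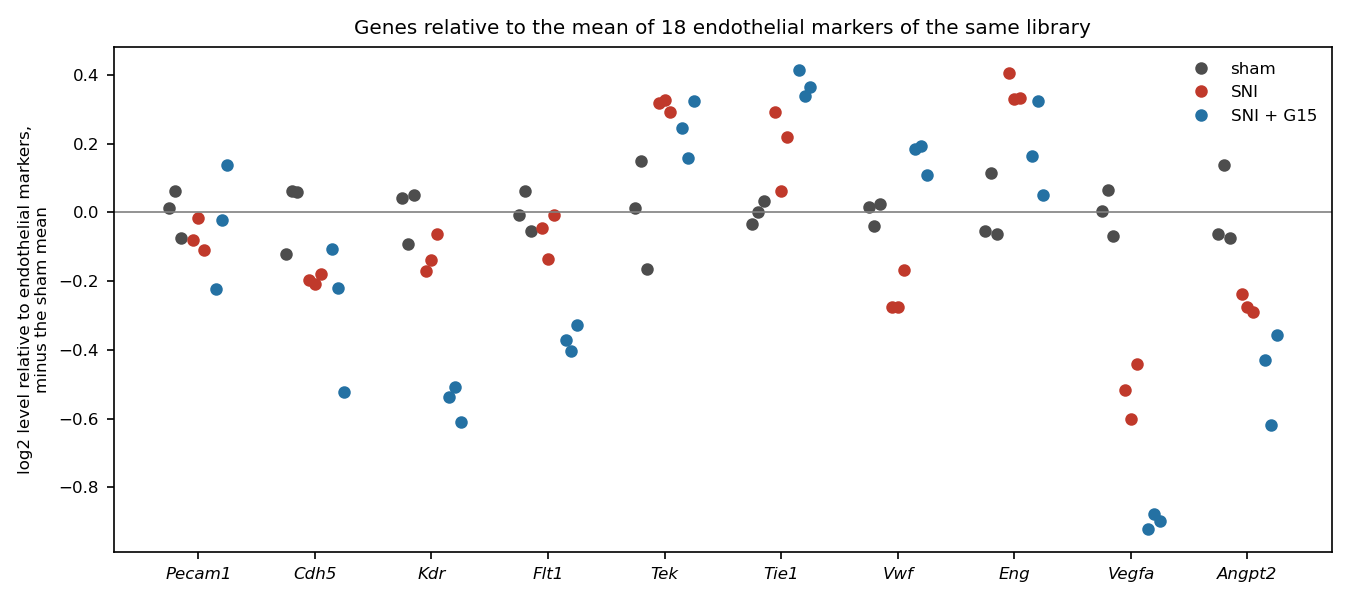
Log2 CPM of each gene minus the mean log2 CPM of 18 endothelial markers in the same library, shown as the difference from the sham mean (vertical axis); points are libraries, coloured by group. Vegfa is lower than sham in SNI (-0.52) and lower still in SNI + G15 (-0.90), and Kdr and Flt1 drop in SNI + G15. All values also carry the rise of the marker mean, and Vegfa can be made by sensory neurons too.

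The endothelial markers themselves did not move as one. After SNI 6 of 18 were called higher and 3 lower, so 9 of 18 were called where 45.7% of all genes were, near the background, with a median log2 change of 0.17 against 0.0010 over all genes. Plvap, a protein of endothelial fenestrae, rose by 0.60 (adjusted p = 2.47e-05, edgeR), and Cd93 (0.50) and Adgrl4 (0.38) rose too, whereas Ramp2, a part of the adrenomedullin receptor, fell (-0.18, adjusted p = 0.0137, edgeR). Against SNI, 4 of 18 rose in SNI + G15 and 0 fell, beside 7.98% and 7.25% of all genes. Cldn5, the main claudin of endothelial tight junctions, rose by 0.64 (adjusted p = 0.00134, edgeR) after a change of -0.22 in SNI against sham (adjusted p = 0.0180, edgeR). Esam (0.37), Ramp2 (0.34) and Sox17 (0.32) rose with it, and Ptprb was not called (0.08, adjusted p = 0.411, edgeR).

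Of 6 tested genes of the VEGF and angiopoietin pathway other than the members, 0 were called higher and 3 lower after SNI. Of all genes 45.7% were called (23.3% higher and 22.4% lower). The share called in either direction was thus near the background, with all 3 calls lower. Pgf, a ligand of Flt1, went from 6.62 ± 0.20 to 4.48 ± 0.53 FPKM (log2 fold change -0.59, adjusted p = 0.00066, edgeR), Nrp2, a co-receptor, changed by -0.21 (adjusted p = 0.00258, edgeR) and Vegfb by -0.17 (adjusted p = 0.0103, edgeR). Vegfb, another ligand of Flt1, was more abundant than Vegfa, at 39.0 ± 1.15 FPKM in sham. The co-receptor Nrp1 was not called (-0.01, adjusted p = 0.859, edgeR). Between SNI + G15 and SNI, Angptl4, a secreted regulator of lipid uptake and vessels, was the 1 gene of the 6 called, at 0.49 (adjusted p = 0.00523, edgeR), against 15.2% of all genes. Angpt1, the activating ligand of Tek, was below 1 FPKM in every library. The ratio of its FPKM to that of Angpt2 was 0.187 ± 0.0097 in sham, 0.142 ± 0.020 in SNI and 0.131 ± 0.010 in SNI + G15, and the ratio of Vegfa to Kdr was 9.79 ± 1.02, 7.34 ± 0.33 and 7.77 ± 0.25.

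Of 9 tested genes of activated endothelium, 5 were called higher and 0 lower after SNI, against 23.3% and 22.4% of all genes. Thbd, a surface anticoagulant, rose by 1.37 (adjusted p = 8.21e-09, edgeR), Selp by 1.32 and Icam1, an adhesion receptor for leukocytes, by 0.73. Thbd and Icam1 are also made by other cells, and Selp, like Vwf, is carried by platelets too. The part of platelets in the Selp changes was not tested. Between SNI + G15 and SNI 2 of the 9 rose (7.98% of all genes), Selp, the selectin stored with Vwf in endothelial granules (0.73, adjusted p = 0.00673, edgeR), and Edn1, the vasoconstrictor endothelin (1.03, adjusted p = 0.01, edgeR). Pericyte and smooth muscle genes were called higher in 4 of 12 after SNI and in 6 of 12 between SNI + G15 and SNI, with 0 lower in both, beside 23.3% and 7.98% of all genes called higher. Des (1.29) and Rgs5 (0.46) were among the first, and Tagln (0.68), Acta2 (0.51) and Rgs5 (0.50) among the second.

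In the next 3 lists the shares called after SNI were near the 45.7% of all genes, and single genes are given as values only. Among 10 tested sprouting and Notch genes, 3 rose and 2 fell after SNI, with Pdgfb, the ligand that draws pericytes, at 0.58 and Unc5b at -0.48. Against SNI, SNI + G15 had 3 higher and 0 lower (7.98% and 7.25% of all genes), with Esm1, a marker of tip cells (counts not whole in 9 of 9 libraries), at 1.02 and Notch4 at 0.45. Of 9 genes that act with Eng in BMP and TGF-beta signalling, 2 rose and 2 fell after SNI, with Tgfb1 at 0.55 and the ligand Bmp6 at -0.87. Against SNI, SNI + G15 had 2 higher and 1 lower (7.98% and 7.25% of all genes), the lower being the receptor Bmpr2 (-0.26, adjusted p = 0.0170, edgeR). Of 8 barrier genes, 1 rose (Tjp1, 0.44) and 2 fell (Mfsd2a, -0.35, and Ocln, -0.58) after SNI, and 1 rose (Abcg2, 0.38) between SNI + G15 and SNI, where 15.2% of all genes were called.

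Since hypoxia is known to raise Vegfa, 11 other tested genes linked to hypoxia were set beside it. Among them is Hif1a, the gene of a hypoxia-inducible factor and not a target only. After SNI 5 rose, among them Hif1a (0.53), Pfkfb3 (0.38) and Pgk1 (0.35), and 2 fell, Ndrg1 (-0.37) and Egln3 (-0.54), while Vegfa changed by -0.36. These 7 calls of 11 compare with 45.7% of all genes. Between SNI + G15 and SNI 1 rose (Ndrg1, 0.31) and 1 fell (Pfkfb3, -0.20), against 15.2% of all genes. Calls in this list went in both directions, and the part of hypoxia in the Vegfa change was not tested. Of 3 tested lymphatic genes, Pdpn (0.47) and Reln (0.21) rose after SNI and Lyve1 fell (-0.51), where 45.7% of all genes were called. Lyve1 then rose by 1.22 between SNI + G15 and SNI (adjusted p = 0.00016, edgeR; counts not whole in 9 of 9 libraries), but Prox1 did not pass the filter, and all 3 genes are made by other cells of the ganglion too.

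Shares of some Vegfa transcripts did not overlap between groups, which gives at best the smallest exact p of this design, 0.1, and does not pass 0.05. The deposited transcript table lists 11 Vegfa transcripts, several of which carry identical values in every library and were summed as sets. The first set of 3 transcripts (set A) held 30.0%, 30.5% and 27.0% of Vegfa FPKM in the sham libraries, 40.4%, 37.0% and 46.2% in SNI, and 18.4%, 19.7% and 22.0% in SNI + G15. No groups overlapped, and the exact permutation p was 0.1 in each comparison, the smallest possible. The second set of 2 transcripts (set B) held 22.2% ± 6.80 in sham, 8.07% ± 3.85 in SNI and 29.9% ± 1.66 in SNI + G15, with overlap only between sham and SNI + G15 (exact permutation p = 0.2). Over all genes past the filter, by the same rules, 13.0% of 21331 transcript sets did not overlap in SNI against sham, 10.6% in SNI + G15 against SNI and 12.3% in SNI + G15 against sham. For the members it was 2, 2 and 3 of 15 sets, near those shares. Sets A and B lay on opposite sides, and together they held 51.4% ± 5.51, 49.3% ± 8.35 and 49.9% ± 0.81. Set A had 9.30 ± 1.47 FPKM in SNI and 3.94 ± 0.38 in SNI + G15, and set B 1.84 ± 0.94 and 5.87 ± 0.28. Such shares depend on how reads were divided between transcripts that share most of their sequence.

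**Figure D5:**
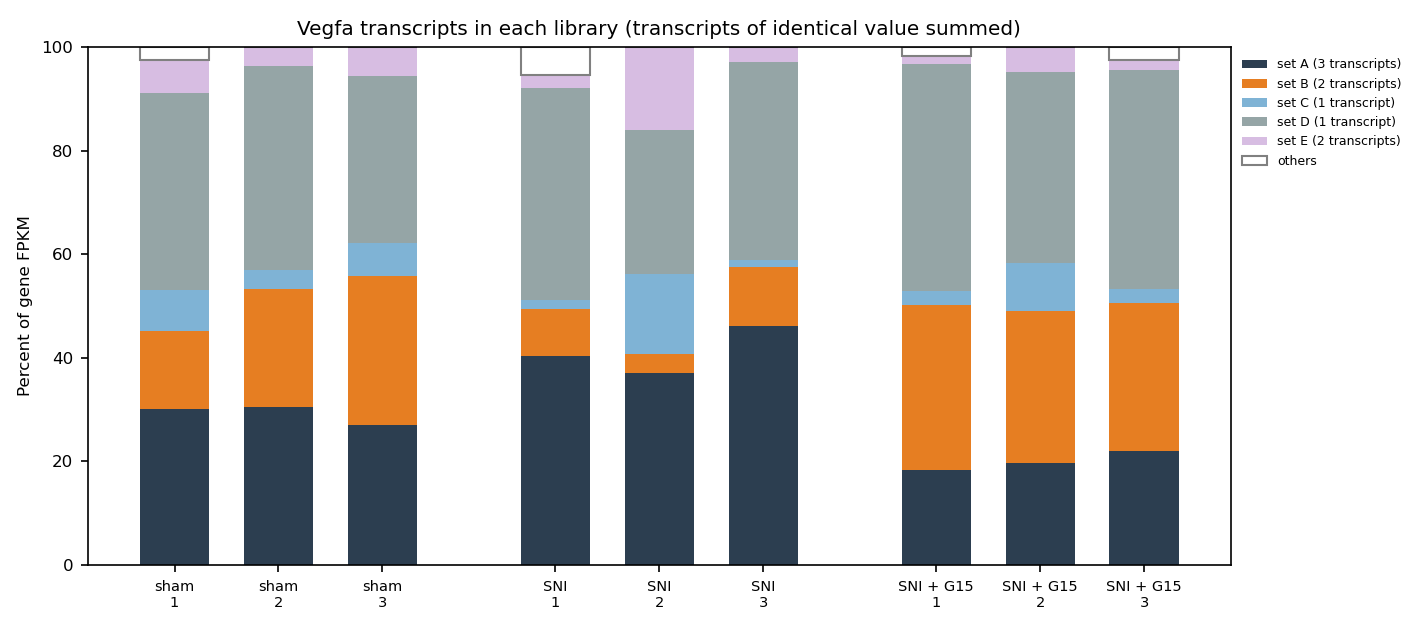
Share of Vegfa FPKM (vertical axis, percent) held by sets of transcripts with identical values in each of the 9 libraries; each bar is 1 library and each colour 1 set. Set A is largest in the 3 SNI libraries (37.0% to 46.2%) and smallest in SNI + G15, and set B is smallest in SNI.

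Apart from Vegfa, Eng was the only member with a transcript share that did not overlap between groups. The main Eng transcript held 61.8% ± 3.94 in sham, 63.1% ± 7.72 in SNI and 55.0% ± 1.98 in SNI + G15 (exact permutation p = 0.1 for SNI + G15 against sham, the smallest possible). The second most abundant transcript of Flt1 held 39.7% ± 0.70, 41.6% ± 3.30 and 36.3% ± 2.79 in the same order. One predicted Vwf transcript held all of the Vwf FPKM in SNI replicate 1, at 2.97, and 12.5% or less in every other library. In Tek the share of the main transcript ranged from 36.3% to 100% within SNI + G15 and SNI, so the sum over transcripts, not the split, was used for levels.

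Genes with the profile most like the mean of the 8 vascular members (all but Vegfa and Angpt2) across the 9 libraries were Fam129b (Pearson r = 0.989), Ybx3 (0.987), Col18a1 (0.987), Myo9b (0.987) and Zyx (0.986). Col18a1, which encodes a basement membrane collagen, had a mean of 55.5 CPM in sham, 90.8 in SNI and 114 in SNI + G15. Most like Vegfa were Gpr22 (0.992), Hapln4 (0.989), Dgkg (0.989), Hsph1 (0.987) and Prrt2 (0.987). Hapln4, a link protein of perineuronal matrix, went from 117 CPM in sham to 63.7 and 44.2, and Gpr22 from 14.8 to 8.87 and 6.45. Most like Angpt2 were Tspan8 (0.956), Fam174a (0.955), Pms2 (0.953), Ywhab (0.938) and Pcmtd2 (0.936). The 9 points share the 3 groups, so these correlations describe the group pattern and carry no test.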

How the data were processed

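RNA was sequenced from rat DRG in 3 sham, 3 SNI and 3 SNI + G15 libraries. The authors deposited FPKM per gene and transcript, normalised for length and library size, and estimated counts, which are not normalised; per library, 70.9% to 72.0% of gene values were whole numbers. The aligner and annotation are not given in the sources used here, and the labels' extraction text and mouse genome builds describe other material than rat DRG. Columns named for a control were taken as sham, the group the other names leave. Deposited TPM and comparison columns were not used.

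The gene counts, rounded, went into edgeR 4.0.16 in R 4.3.3 (quasi-likelihood test, TMM scaling) over 14305 genes with at least 1 FPKM in at least 1 library, with only the groups compared in the fit and Benjamini-Hochberg adjustment; genes were called at an adjusted p below 0.05. A standard error is the log2 fold change over the root of F. Exact permutation tests used SciPy 1.17.1. Alternatives used DESeq2 1.42.0, limma 3.58.1 (log2 of FPKM plus 1 or 0.1), no filter, all 9 libraries, a replicate block and each library left out. In simulated counts with 200 of 14305 genes changed by 1 on the log2 scale, SNI against sham, 93% were recovered with 11 false calls. The largest change of a member was 0.68 (Tie1, SNI + G15 against sham), so recovery of changes as small as those of the members was not tested. Gene IDs were matched to RefSeq (GRCr8) for 18599 of 20194 genes and 10 of 10 members. The members and lists were chosen with earlier results of these data known. Genes named are the members, of each list up to 4 called with the smallest adjusted p and up to 2 of the most abundant not called, defining markers, and the 5 genes most like each profile. A gene that this rule selects is not reported here.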

Additional observations from a re-analysis of the deposited data

How the results depend on the processing

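The members called in SNI against sham numbered 4 in all 13 alternatives. In SNI + G15 against SNI, 4 became 3 with the DESeq2 Wald test and limma-trend and 2 with the replicate block. It became 2 to 5 when single libraries were left out, with 2 without SNI replicate 1 or SNI replicate 3. The share of all genes called fell too, from 15.2% to 9.03% with the block and to 7.68% and 6.24% without SNI replicates 1 and 3. Fewer libraries or residual degrees of freedom were in these fits, and the cause was not tested otherwise. In SNI + G15 against sham the alternatives gave 5 to 7 members, with 32.5% to 48.1% of all genes called. Same-numbered libraries were not paired, with correlations of their deviations from -0.131 to 0.0285, and the block left Vwf and Tie1 called and not Vegfa (adjusted p = 0.0720, edgeR) or Kdr (0.0742). In SNI + G15 against sham it left Pecam1 (0.0616) and Kdr (0.0638) uncalled. Directions reversed only in comparisons where the gene was not called. In SNI against sham, leaving out one library gave Kdr from -0.0365 to 0.0751 and Cdh5 from -0.0782 to 0.0125. In SNI + G15 against SNI it gave Eng from -0.0918 to 0.0559 and Angpt2 from -0.0905 to 0.0303, and limma-trend gave Eng 0.0035 and 0.0034 at pseudocounts of 1 and 0.1. In SNI + G15 against sham it gave Cdh5 from -0.0362 to 0.151. Of 390 alternative values of the members' log2 fold changes, 349 kept direction and call.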
